A study of Mus musculus with 20 samples.

Results

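The expression of 10 genes of the fast muscle fibre was followed through libraries of mouse hindlimb muscle, with and without treadmill training. The libraries were labelled as vehicle or as a knockout of the clock gene Bmal1. The genes were chosen by symbol, and all 10 of 10 symbols were found once each among the 21844 genes of the count table. They are the myosin heavy chains Myh1, Myh2 and Myh4, the troponin subunits Tnnt3, Tnni2 and Tnnc2, the myosin light chains Mylpf and Myl1, the Z-disc protein gene Actn3 and the calcium buffer gene Pvalb. All 10 passed the filter on low counts.

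Skeletal muscle fibres differ in how fast they contract, and each fibre type builds its sarcomere from its own set of protein isoforms. Myosin heavy chain is the motor, with Myh4 coding for the type IIB, Myh1 for the type IIX and Myh2 for the type IIA form, while slow type I fibres use Myh7. Myosin light chains sit on the neck of the motor, troponin is the calcium switch of the thin filament, alpha-actinin-3 anchors thin filaments at the Z-disc, and parvalbumin takes up calcium as fast fibres relax. BMAL1 is the core transcription factor of the circadian clock, and loss of clock function in muscle has been studied in relation to fibre type and force.

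RNA of 20 libraries was sequenced, 5 in each of 4 groups, and every library carried the genotype label Cre+:iMSBmal1 fl/fl. The mice therefore shared a floxed Bmal1 gene and a Cre recombinase in all groups, and the promoter of the Cre, the age and the sex are not given in the sources used here. The treatment label was Vehicle or iMSBmal1KO, each with no exercise (sedentary) or with exercise, which the series describes as daily treadmill sessions over 6 weeks (trained). Tissue was taken at 48 hours after the last session by the sample labels and at 47 hours by the series text, and 1 label field names the tibialis anterior where the others name the gastrocnemius.

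Total estimated counts were 12929215 to 19153527 in the vehicle sedentary, 11506037 to 18969645 in the knockout sedentary, 13905274 to 17564810 in the vehicle trained and 10610333 to 13079961 in the knockout trained libraries. Knockout trained libraries 1 and 4, and likewise 3 and 5, differed by little more than counting noise and each pair was counted as 1 sample, which left n = 3 in that group and 18 samples in all. The targeted gene, listed as Arntl, was not lower where the label says knockout: it measured 6.79 ± 0.89 CPM (estimated counts per 1000000 counts of the library; SD, n = 5) in vehicle sedentary and 13.2 ± 3.28 CPM (SD, n = 5) in knockout sedentary libraries. In trained muscle Arntl was 6.32 to 6.68 CPM in 4 vehicle libraries, 132 CPM in vehicle trained library 2 and 8.04 to 16.1 CPM in the knockout group, so that without library 2 every knockout value lay above every vehicle value. These are counts over the whole gene, which cannot show whether the floxed exon was removed, and "knockout" below means the libraries labelled so. Vehicle trained library 2 stood apart, with the ubiquitin ligase gene Trim63 at 6307 CPM and Fbxo32 at 3022 CPM, where the other 4 libraries of its group had at most 345 and 387 CPM. The 8 markers of skeletal muscle fibres were detected in every group, with a summed level of 32694 to 49709 CPM, the lowest being this library 2. Nothing in the labels says which libraries came from separate animals, so p-values measure the spread between these samples.

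Promoters of 7 of the 10 genes were found in the RefSeq table of mouse assembly GRCm38.p6, and those of Tnnt3, Tnni2 and Actn3 were not. The myosin trio is shown first because the 3 genes lie close together on chromosome 11 and their promoters hold one identical stretch. Each line gives the 170 bases before the gene start, 5′ to 3′, on the plus strand of chromosome 11. The capitals mark the longest run that all 3 promoters share, 20 bases, and the windows are chr11:67170857-67171026 for Myh2, chr11:67199932-67200101 for Myh1 and chr11:67237642-67237811 for Myh4.
Myh2: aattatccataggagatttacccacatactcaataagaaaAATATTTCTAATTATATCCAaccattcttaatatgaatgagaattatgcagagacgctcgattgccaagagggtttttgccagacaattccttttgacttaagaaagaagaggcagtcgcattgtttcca
Myh1: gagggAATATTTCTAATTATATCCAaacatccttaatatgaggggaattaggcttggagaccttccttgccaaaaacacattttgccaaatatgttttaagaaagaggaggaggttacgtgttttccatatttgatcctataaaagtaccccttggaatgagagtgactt
Myh4: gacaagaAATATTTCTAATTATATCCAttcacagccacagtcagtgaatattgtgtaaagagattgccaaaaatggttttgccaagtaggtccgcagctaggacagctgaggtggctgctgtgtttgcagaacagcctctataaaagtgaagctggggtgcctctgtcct
The run began 165 bases before the start of Myh1, 130 before that of Myh2 and 163 before that of Myh4. On either strand it was found in 0 other promoters of the 32851 in the table.

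The promoters of Tnnc2 and Mylpf are shown because these genes had the largest differences relative to their errors between the trained groups. Each line gives the 150 bases before the gene start, chr2:164779735-164779884 on the minus strand for Tnnc2 and chr7:127211458-127211607 on the plus strand for Mylpf. The capitals mark the letters CANNTG, the E-box, which basic helix-loop-helix proteins such as MyoD and the BMAL1 and CLOCK pair bind.
Tnnc2: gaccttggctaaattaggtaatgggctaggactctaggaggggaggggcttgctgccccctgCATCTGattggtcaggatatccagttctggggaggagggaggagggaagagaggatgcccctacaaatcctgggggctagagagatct
Mylpf: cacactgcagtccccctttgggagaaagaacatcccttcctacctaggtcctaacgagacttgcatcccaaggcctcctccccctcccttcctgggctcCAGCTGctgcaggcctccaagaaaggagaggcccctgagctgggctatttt
In the windows of 250 bases before the start, CANNTG was found in Tnnc2, Mylpf, Myl1 and Myh4, and 66.217% of all promoters hold it. The narrower form CACGTG, itself a CANNTG and the one preferred by BMAL1 and CLOCK, was found in 0 of the 7 windows, against 6.021% of all promoters. TATAAA was found in Myh1, Myh4 and Myl1, and 12.368% of all promoters hold it. These are matches of letters on both strands, and they give no measure of binding.

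All 10 genes were abundant, and together they took 6.34% to 6.94% of all counts in vehicle sedentary, 6.15% to 7.42% in knockout sedentary, 4.13% to 7.02% in vehicle trained and 6.33% to 7.94% in knockout trained libraries. The lowest share was that of vehicle trained library 2. Per kilobase of transcript, the level in vehicle sedentary muscle was highest for Tnnt3, at 8371 ± 213 CPM per kb (SD, n = 5), followed by Tnnc2 at 6920 ± 277 and Myl1 at 6627 ± 511. Pvalb at 5965 ± 289, Mylpf at 5794 ± 755 and Tnni2 at 4767 ± 250 CPM per kb came next, and neighbours in this order from Tnnc2 to Mylpf lay within the sum of their SDs. Among the motors, Myh4 stood at 4100 ± 550 CPM per kb, against 329 ± 53.6 for Myh1 and 322 ± 60.7 for Myh2, and Actn3 stood at 1682 ± 113. Thus Myh4, the motor of the fastest fibres, was the most abundant of the 3, and Myh1 and Myh2 lay within their SDs of each other.

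**Figure D1:**
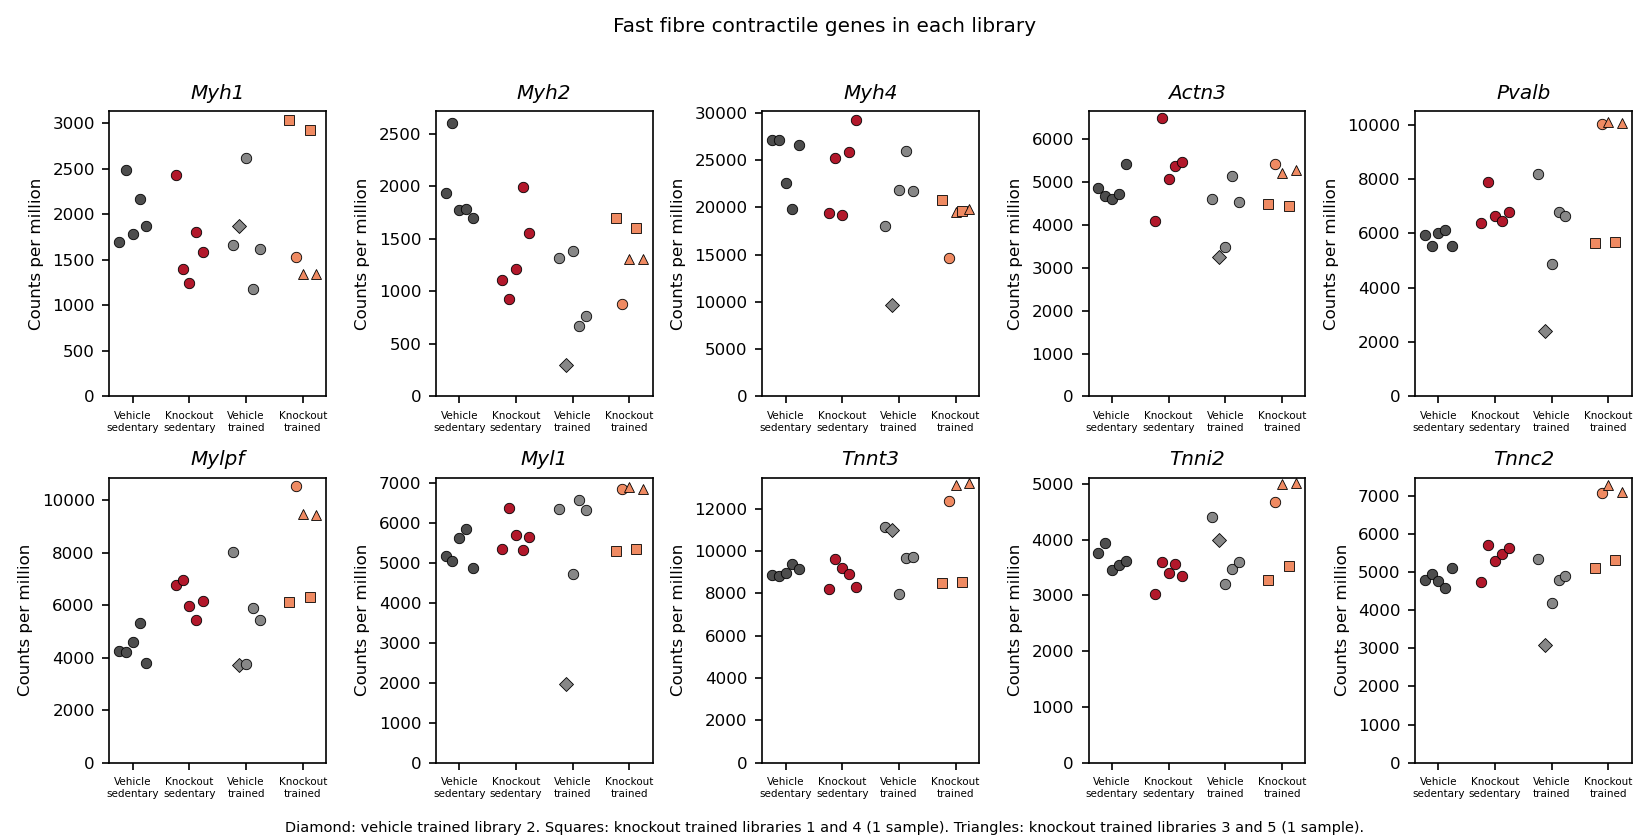
CPM of each of the 10 genes (y axis, linear, from 0) in every library, by group (x axis); each symbol is 1 library, with the diamond for vehicle trained library 2 and squares and triangles for the pairs of near-identical knockout trained libraries. The light chain gene Mylpf sat between 5455 and 6973 CPM in knockout sedentary and between 3788 and 5339 CPM in vehicle sedentary libraries, and Myh2 was lower in every vehicle trained than in every vehicle sedentary library.

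In sedentary muscle, none of the 10 genes passed the test between knockout and vehicle, but Mylpf and Pvalb were higher in all 5 knockout libraries than in all 5 vehicle libraries. The comparison asks whether the fast contractile genes differ with the knockout label in untrained muscle. The edgeR quasi-likelihood test called 0 of 10 at an adjusted p under 0.05, where 2.33% of the 14359 genes tested were called. At an unadjusted p under 0.05 it found 1 of the 10, against 9.81% of all genes, and the DESeq2 Wald test called 0 of 10 and 3.74% of all genes. In the fit without vehicle trained library 2, which enters this fit through the shared spread, edgeR called 0 of 10 and 6.98% of all genes. The median log2 change of the 10 was -0.02, beside 0.01 over all genes tested, with 5 changes above and 5 below 0.

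Mylpf, the regulatory light chain of fast fibres, measured 4256, 4222, 4586, 5339 and 3788 CPM in vehicle sedentary libraries 1 to 5 and 6787, 6973, 5954, 5455 and 6177 CPM in the knockout sedentary libraries. Every knockout library was above every vehicle library, although vehicle library 4 and knockout library 4 lay close. The log2 change was 0.45 ± 0.19 (SE), with an adjusted p of 0.387 in the edgeR fit over all groups. In a fit of the 2 sedentary groups alone the edgeR adjusted p was 0.00778 at nearly the same log2 change, 0.44, with 1 of 10 and 8.2% of all genes called, so the call depended on which groups entered the fit. Over all 30 alternatives the log2 change stayed between 0.40 and 0.51, and that fit was the 1 that called it.

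Pvalb, the calcium buffer of fast fibres, measured 5931, 5532, 6028, 6125 and 5525 CPM in vehicle sedentary and 6370, 7900, 6632, 6467 and 6779 CPM in knockout sedentary libraries. The groups did not overlap, with knockout library 2 well above the rest. The fitted log2 change was 0.17 ± 0.23 (SE), with an edgeR adjusted p of 0.977. Of all genes tested, 9.39% had groups that did not overlap in CPM, and 5.61% had them with knockout higher, beside 2 of 10 here.

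The other sedentary differences were small or mixed. The heavy chains Myh2 and Myh1 had log2 changes of -0.57 ± 0.32 and -0.29 ± 0.24 (SE), and Myh2 lay between 924 and 1987 CPM in knockout and between 1694 and 2598 CPM in vehicle libraries. The remaining 6 genes, Myh4, Tnnt3, Tnni2, Tnnc2, Myl1 and Actn3 had log2 changes between -0.17 and 0.09, with edgeR adjusted p from 0.882 to 1.

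In trained muscle, 9 of the 10 genes had a higher fitted level in knockout than in vehicle libraries, and 1 of them, Tnnc2, rose by the test. The comparison asks what differs with the knockout label in trained muscle. Whether training alters that difference is asked by the interaction below. The edgeR test called 1 of 10, against 3.3% of all genes tested (2% called higher), and at an unadjusted p under 0.05 it found 3 of 10, against 17.2% of all genes. The median log2 change of the 10 was 0.34, beside -0.03 over all genes. Without vehicle trained library 2 the edgeR fit called 2 of 10, Tnnc2 and Mylpf, against 8.64% of all genes, and the median was 0.33.

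Tnnc2, the calcium-binding subunit of fast troponin, measured 5347, 3090, 4186, 4799 and 4909 CPM in vehicle trained libraries 1 to 5 and 5096, 7082, 7272, 5315 and 7088 CPM in the knockout trained libraries. In the sedentary groups it measured 4789, 4949, 4777, 4596 and 5110 CPM with vehicle and 4748, 5707, 5288, 5483 and 5619 CPM with knockout. Knockout trained library 2 and the near-identical libraries 3 and 5 were the highest of all 20. The near-identical libraries 1 and 4 sat among the vehicle values, so the trained groups overlapped. The log2 change between the trained groups was 0.60 ± 0.16 (SE), with an edgeR adjusted p of 0.0495, and without vehicle trained library 2 it was 0.51 with an adjusted p of 0.0296. The group means ran from 4466 ± 874 CPM (SD, n = 5) in vehicle trained and 4844 ± 194 in vehicle sedentary to 5369 ± 381 in knockout sedentary and 6489 ± 1113 (SD, n = 3) in knockout trained, and each step between neighbours was within the sum of their SDs. The call lies just under the threshold: it held in 8 of 30 alternatives, and the log2 change stayed between 0.40 and 0.79. Leaving out any 1 of the 10 sedentary libraries, vehicle trained library 3, 4 or 5, knockout trained library 2, or the knockout trained pair 3 and 5 ended it, with edgeR adjusted p between 0.0585 and 0.292.

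Mylpf measured 8014, 3736, 3772, 5912 and 5422 CPM in vehicle trained and 6128, 10530, 9485, 6325 and 9436 CPM in knockout trained libraries. The highest values were again those of knockout libraries 2, 3 and 5, and vehicle trained library 1 stood above knockout libraries 1 and 4. Its log2 change was the largest of the 10, 0.77 ± 0.21 (SE), with an edgeR adjusted p of 0.0537, and 0.69 with an adjusted p of 0.0406 without vehicle trained library 2. Mylpf was called in 8 of 30 alternatives, and its log2 change stayed between 0.61 and 1.02.

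Pvalb followed the same pattern at 8171, 2405, 4888, 6792 and 6649 CPM in vehicle trained and 5650, 10022, 10112, 5679 and 10058 CPM in knockout trained libraries. Library 2 was the lowest of its group by a wide margin and knockout libraries 2, 3 and 5 were the highest of all. The log2 change was 0.65 ± 0.26 (SE) with an edgeR adjusted p of 0.206, and 0.47 with an adjusted p of 0.137 without vehicle trained library 2. Among the remaining genes, Myh2 had a log2 change of 0.55 ± 0.36 (SE), Myl1 0.36 ± 0.24, Actn3 0.32 ± 0.16, Tnni2 0.28 ± 0.15, Tnnt3 0.25 ± 0.16, Myh1 0.12 ± 0.28 and Myh4 -0.05 ± 0.25. In CPM, 0 of the 10 genes had trained groups that did not overlap, against 7.97% of all genes tested.

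**Figure D2:**
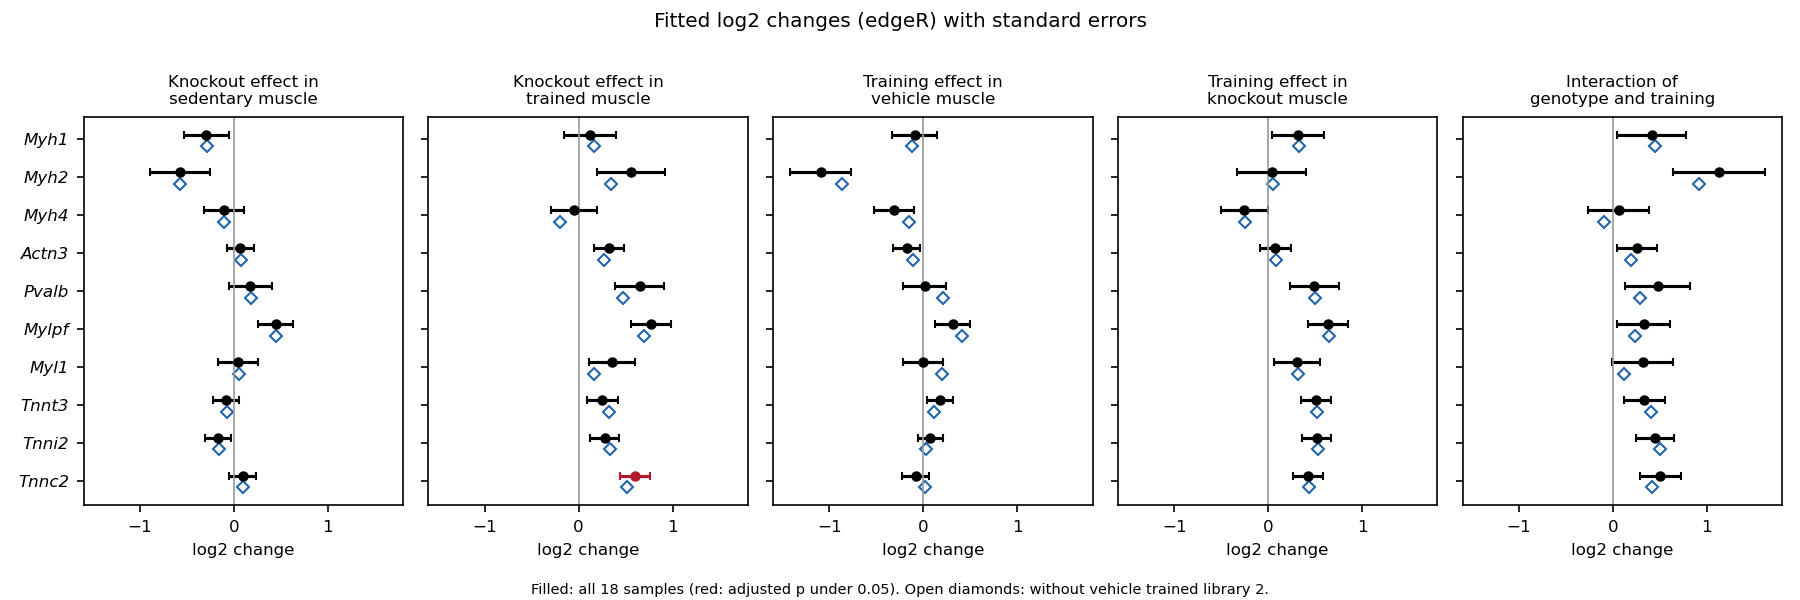
Fitted log2 change (x axis) of each of the 10 genes (y axis) in the 5 comparisons, as points with standard errors from the edgeR fit of 18 samples; red marks an adjusted p under 0.05, and open diamonds leave out vehicle trained library 2. Of the 50 points only Tnnc2 in trained muscle, at 0.60, is red, and Myh2 is the lowest point, at -1.09, in the training comparison with vehicle.

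In vehicle muscle, Myh2, the motor of type IIA fibres, was lower in every trained library than in every sedentary library, but the difference did not pass the test. The comparison asks what differed after 6 weeks of training in libraries labelled Vehicle. Myh2 measured 1935, 2598, 1770, 1785 and 1694 CPM in vehicle sedentary and 1321, 296, 1385, 668 and 763 CPM in vehicle trained libraries. The groups did not overlap, and library 2 was the lowest. The log2 change was -1.09 ± 0.32 (SE) with an edgeR adjusted p of 0.272, and -0.87 with an adjusted p of 0.343 without library 2. Groups that did not overlap in CPM were found for 2.97% of all genes tested, 2.73% with trained lower, and for 1 of the 10 here, and without library 2 for 4.91% of all genes and the same 1 of 10.

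The edgeR test called 0 of 10 in this comparison and 0% of all genes, while an unadjusted p under 0.05 was found for 1 of 10 and for 15.2% of all genes, and the DESeq2 Wald test called 0 of 10 and 0% of all genes. The median log2 change of the 10 was -0.04, beside 0.03 over all genes, and the 9 genes other than Myh2 lay between -0.32 (Myh4) and 0.31 (Mylpf). Without vehicle trained library 2 the median was 0.02 and Myh4 was at -0.15. That library held 9663 CPM of Myh4, where the other 4 of its group held 18007 to 25942 CPM, and 1978 CPM of Myl1, where they held 4731 to 6593 CPM.

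Markers of macrophages and of stress also differed between these 2 groups without passing the edgeR test after adjustment. Of the 8 macrophage markers, 8 had a higher fitted level with training and 8 an unadjusted p under 0.05, with a median log2 change of 1.11, and of 0.88 with 3 such genes when library 2 was left out. The 8 markers summed to 55.1 to 220 CPM in vehicle sedentary and 155 to 393 CPM in vehicle trained libraries. Of 16 atrophy and stress genes, 15 had a higher fitted level and 12 an unadjusted p under 0.05, with a median of 1.33, and of 0.02 with 3 such genes when library 2 was left out. Of all genes tested, 15.2% had an unadjusted p under 0.05 in this comparison, and 13% without library 2. The part of these markers in the Myh2 values was not tested.

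In knockout muscle, 9 of the 10 genes had a higher fitted level with training, and none passed the test. The 3 troponin genes and Mylpf had the largest changes relative to their errors, with log2 values of 0.51 ± 0.16 (SE) for Tnnt3, 0.52 ± 0.15 for Tnni2, 0.42 ± 0.16 for Tnnc2 and 0.64 ± 0.21 for Mylpf. Their edgeR adjusted p lay between 0.222 and 0.379. The test called 0 of 10 and 0% of all genes, and an unadjusted p under 0.05 was found for these 4 of 10 and for 9.69% of all genes. The DESeq2 Wald test called 1 of 10, Tnni2, at a log2 change of 0.53 with an adjusted p of 0.0400, where it called 1.2% of all genes, and without vehicle trained library 2 edgeR called 0 of 10 and 0.836% of all genes. The median of the 10 was 0.37, beside -0.02 over all genes, and in CPM 0 of 10 had groups that did not overlap, against 11.9% of all genes. Of 12 slow fibre genes 9 were also higher (median 0.43), and of 13 mitochondrially encoded genes 13 (0.33). Of 15 further fast fibre genes 11 were higher, with a median of 0.10.

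Tnnt3, the tropomyosin-binding troponin subunit, measured 8224, 9625, 9218, 8937 and 8327 CPM in knockout sedentary and 8470, 12376, 13114, 8527 and 13217 CPM in knockout trained libraries. Tnni2, the inhibitory subunit, measured 3018, 3599, 3404, 3563 and 3350 CPM and then 3284, 4681, 5003, 3522 and 5013 CPM. For both genes library 2 and the near-identical libraries 3 and 5 were far above the sedentary values. The near-identical libraries 1 and 4 were within them. Leaving out that pair 1 and 4, which leaves 2 knockout trained samples, the edgeR test called 2.76% of all genes and 4 of 10: Tnnt3 at a log2 change of 0.73 (adjusted p 0.0135), Tnni2 at 0.72 (adjusted p 0.0135), Mylpf at 0.88 (adjusted p 0.0325) and Tnnc2 at 0.62 (adjusted p 0.0491). The lone call in trained muscle and these 4 calls thus moved with which of the 3 knockout trained samples were kept.

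The interaction asks whether training acted differently with the knockout label, and none of the 10 genes passed it. All 10 fitted interactions were above 0, with a median of 0.38 beside -0.02 over all genes, and the interaction is built from the same 4 groups as the comparisons above. The direction was not particular to the 10. In lists described below, 14 of 15 further fast fibre genes (median 0.36) and 12 of 12 slow fibre genes (0.89) were above 0. So were 12 of 13 sarcomere genes of both fibre types (0.34), while 8 of 8 macrophage markers (-0.98) were below 0. Without vehicle trained library 2, 9 of the 10 fast contractile genes were above 0 and their median was 0.35. The edgeR test called 0 of 10 and 0% of all genes, and an unadjusted p under 0.05 was found for 3 of 10 and for 7.51% of all genes, and the DESeq2 Wald test called 0 of 10 and 0.202% of all genes. Those 3 were Myh2 at 1.13 ± 0.48 (SE), Tnnc2 at 0.51 ± 0.22 and Tnni2 at 0.45 ± 0.20, each with an edgeR adjusted p of 0.661.

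Within a library, the share of each motor does not depend on scaling, so the counts of Myh4, Myh1, Myh2 and the slow Myh7 were set against their sum. Myh4 took 85.2% ± 2.31 (SD, n = 5) in vehicle sedentary, 87.8% ± 2.77 (n = 5) in knockout sedentary, 86.5% ± 4.91 (n = 5) in vehicle trained and 84.1% ± 3.33 (n = 3) in knockout trained muscle. The IIB motor thus made up most of the heavy chain counts in every library, from 80.5% to 93.1%. Myh7 took at most 1.47% in any library.

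The Myh2 share was 6.22%, 7.95%, 6.72%, 7.42% and 5.57% in vehicle sedentary and 4.80%, 3.34%, 5.54%, 6.62% and 4.77% in knockout sedentary libraries. It was 6.22%, 2.48%, 5.32%, 2.39% and 3.15% in vehicle trained and 6.59%, 5.08%, 5.84%, 6.57% and 5.75% in knockout trained libraries. The mean was lower with knockout in sedentary muscle and higher with knockout in trained muscle, and the groups overlapped each time. The difference was -1.76 percentage points between the sedentary groups (two-sided exact permutation test, p = 0.0317) and -2.87 points with training in vehicle muscle (p = 0.0238, exact permutation test). Of the 16 share tests 0 passed after adjustment, and both of these had an adjusted p of 0.254. Without vehicle trained library 2 the training difference was -2.51 points. Between the trained groups the Myh2 share differed by 1.91 points (exact permutation test, p = 0.143).

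**Figure D3:**
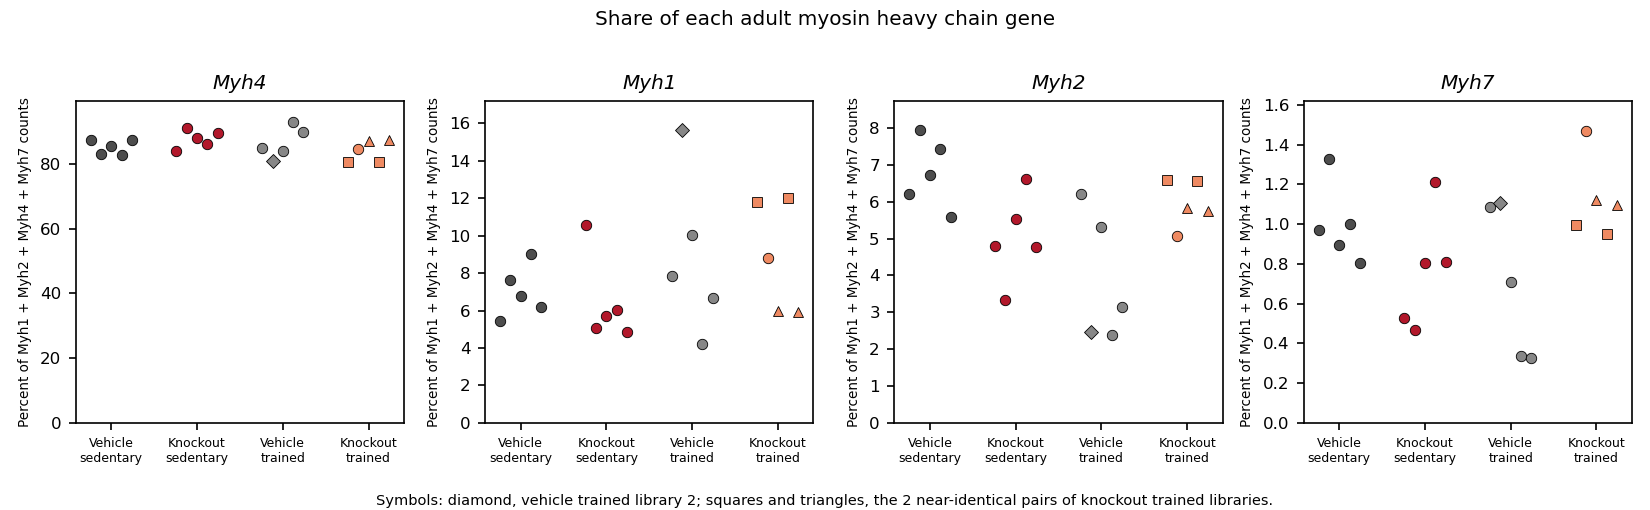
Share of Myh4, Myh1, Myh2 and Myh7 in the summed counts of the 4 genes (y axis, percent, from 0, a different scale in each panel) in every library, by group (x axis); symbols mark vehicle trained library 2 and the near-identical pairs. Myh4 stays between 80.5% and 93.1%, and the Myh2 share reaches down to 2.39% in vehicle trained muscle.

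The counts of these motors carry an uncertainty of their own, because their transcripts are alike. The coding sequences were identical at 91.1% of aligned positions between Myh1 and Myh2, 90.2% between Myh1 and Myh4 and 88.2% between Myh2 and Myh4. In 1 principal transcript per gene, 26.7% of the stretches of 50 bases of Myh1, 26.9% of those of Myh2 and 18.9% of those of Myh4 also occur in another gene. Each time these were other myosin heavy chains. The longest coding run identical in all 3 is 140 bases, coding bases 1549 to 1688, a stretch that codes for part of the motor domain. Reads from such stretches cannot be assigned to 1 gene by sequence, and 32.1% of the 50-base stretches of Myl1 occur in the pseudogene Mylf-ps. In the 3 troponin genes, Mylpf and Pvalb no stretch of 50 bases was shared with another gene, and in Actn3 0.07% were shared, with Actn2.

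Fast and slow partners of the same protein were compared within each library as a log2 ratio of counts. The slow partners were far less abundant, for example Tnnt1 at 68.5 ± 14.4 CPM and Tnni1 at 27.8 ± 7.84 CPM (SD, n = 5) in vehicle sedentary muscle. Myl2, the slow regulatory light chain, stood at 147 ± 32.6 CPM, Tnnc1 at 60.6 ± 12.7, Myl3 at 289 ± 68.7 and Actn2, present in all fibres, at 488 ± 78.5 CPM (SD, n = 5). Of 24 ratio tests 0 passed after adjustment, the smallest adjusted p being 0.267, and 2 had an unadjusted exact permutation p under 0.05.

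Those 2 were the ratio of Mylpf to Myl2 between the sedentary groups and the ratio of Tnnt3 to Tnnt1 with training in vehicle muscle. The Mylpf to Myl2 log2 ratio was 4.93 ± 0.28 (SD, n = 5) with vehicle and 5.74 ± 0.54 (SD, n = 5) with knockout, a difference of 0.81 (two-sided exact permutation test, p = 0.0238). The Tnnt3 to Tnnt1 log2 ratio was 7.07 ± 0.31 (SD, n = 5) in sedentary and 8.21 ± 0.85 (SD, n = 5) in trained vehicle muscle, a difference of 1.14 (two-sided exact permutation test, p = 0.0317), and of 0.99 without vehicle trained library 2. In trained muscle the Tnni2 to Tnni1 log2 ratio was 7.77 ± 0.75 (SD, n = 5) with vehicle and 6.37 ± 0.06 (SD, n = 3) with knockout, a difference of -1.40 without overlap (exact permutation test, p = 0.0536). The smallest p this design allows is 0.0179 for 5 against 3 and 0.00794 for 5 against 5.

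The other genes of the pathway were read in the same edgeR fit, from lists chosen by function. Of 15 further fast fibre genes, among them the calcium pump Atp2a1, the calcium store protein Casq1 and glycolytic enzymes, 0 were called in any of the 5 comparisons. Their median log2 change was -0.21 in sedentary and 0.17 in trained muscle between knockout and vehicle. In the fit without vehicle trained library 2, Ampd1 (log2 0.65, edgeR adjusted p 0.00261) was called higher and Pfkm (-0.75, adjusted p 0.000445) lower in sedentary knockout muscle. In trained knockout muscle Ampd1 (0.62), Pgam2 (0.38) and Jsrp1 (0.28) were called higher and Pfkm (-0.62) lower, and with training in knockout muscle Pgam2 (0.50) was called higher. These names were chosen after their values were seen.

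Of 12 genes of the slow fibre program, Casq2, the slow and cardiac calcium store protein, rose with knockout in sedentary muscle, by a log2 change of 1.46 (edgeR adjusted p 0.00455). It rose by 1.81 (adjusted p 0.00223) in trained muscle, where Pln, the inhibitor of the slow calcium pump, rose by 2.02 (edgeR adjusted p 0.0071). Neither of them is a motor or troponin gene. The median of the 12 was -0.14 in sedentary and 0.88 in trained muscle, and -0.72 with training in vehicle muscle, where 0 of 12 were called and where the macrophage and stress markers differed as given above. When vehicle trained library 2 was left out, these medians were -0.14, 0.82 and -0.53, and Pln in sedentary muscle and Tnni1 in trained muscle were called higher as well.

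Of 13 sarcomere genes used by both fibre types, Tcap, which caps titin at the Z-disc, fell with knockout by 1.88 on the log2 scale in sedentary muscle (edgeR adjusted p 4.01e-06). In trained muscle it fell by 1.23 (edgeR adjusted p 0.00231), and the other 12 were not called in either comparison. Tcap measured 1957 to 2486 CPM in vehicle sedentary and 537 to 785 CPM in knockout sedentary libraries. The groups are far apart, in contrast to the overlapping values of Tnnc2 in trained muscle.

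Of 28 regulators of fibre type, 3 were called in sedentary muscle: Tead4 was higher at 1.96 (edgeR adjusted p 0.000708), Mafa higher at 1.17 (adjusted p 0.0274) and Vgll2 lower at -1.08 (adjusted p 0.0456). In trained muscle Tead4 at 1.51 and Mafa at 1.66 were called higher in the edgeR fit, with adjusted p of 0.0131 and 0.00497. Mafa belongs to the large Maf factors, which are known to drive Myh4, and Vgll2 and Tead4 belong to a cofactor and factor family that acts in muscle gene control. Myh4 itself did not pass the test in any of the 5 comparisons. Of 7 genes tested from a list of the developing and regenerating fibre, Actc1, the cardiac actin of immature muscle, rose by 2.39 (edgeR adjusted p 0.00435) in trained knockout muscle. With all 18 samples, edgeR called no gene of these lists in the training comparisons or in the interaction. At an unadjusted p under 0.05, the slow program had 6 of 12 with training in vehicle muscle, against 15.2% of all genes. It had 6 of 12 in the interaction, against 7.51%, and 9 of 12 with knockout in trained muscle, against 17.2%.

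Markers of other cells and of stress were read beside the trained comparison. Of the lists for blood, adipocytes, Schwann cells, endothelium, macrophages, satellite cells, fibro-adipogenic cells and mitochondrially encoded genes, 1 gene was called, the endothelial Egfl7 at a log2 change of 0.58 (edgeR adjusted p 0.0272). The 8 macrophage markers summed to 155 to 393 CPM in vehicle trained and 53.4 to 320 CPM in knockout trained libraries. The 7 markers of satellite cells, the stem cells of muscle, summed to 74.4 to 378 CPM and 99.2 to 124 CPM in these groups. They summed to 78.6 to 94.5 CPM and 124 to 142 CPM in vehicle and knockout sedentary libraries, where no library overlapped. With all 18 samples edgeR called 0 of the 6 tested in sedentary muscle, at a median log2 change of 0.24. The sums weigh the markers unequally: Sdc4 averaged 39.1 CPM and Pax7 4.06 CPM in vehicle trained muscle without library 2. The 8 developmental genes summed to 59.0 to 81.7 CPM and 124 to 196 CPM in the sedentary groups and to 56.0 to 63.0 CPM and 156 to 205 CPM in the trained groups, again without overlap. Actc1 had the highest mean of the 8 genes in each of the 4 groups, and the median log2 change of the 7 genes tested was 0.56 in sedentary and 0.19 in trained muscle, where 2 of the 7 were lower. Of 16 atrophy and stress genes, Fkbp5 fell by 1.52 (edgeR adjusted p 0.0439), and the list summed to 1163 to 16342 CPM in vehicle trained and 1434 to 1946 CPM in knockout trained libraries, the highest sum being that of library 2. The median of the 16 between the trained groups was -1.33, and 0.03 without library 2, where 2 were called higher, Cdkn1a and Gadd45a, and 2 lower, Fkbp5 and Foxo1. In that fit the satellite cell marker Sdc4 was called higher with knockout in trained (log2 0.79, edgeR adjusted p 2.42e-05) and in sedentary muscle (0.90, adjusted p 3.76e-07), as were Egfl7 and Mb in trained and Col3a1, a fibro-adipogenic marker, in sedentary muscle. With all 18 samples Mb, the oxygen store of muscle fibres, rose by 0.96 (edgeR adjusted p 0.0439). The part of these in the values of the 10 genes was not tested, and fewer fibres of a type and less RNA per fibre cannot be told apart in whole muscle.

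The medians of the short and of the long transcripts among the 10 genes moved apart in certain libraries. The 6 short ones, from 700 to 1079 bases, are Tnnt3, Tnni2, Tnnc2, Mylpf, Myl1 and Pvalb, and the 4 long ones, from 2887 to 6083 bases, are Actn3 and the heavy chains, a split made after the values were seen. The median log2 deviation of the short genes from the mean of the group means was 0.40, 0.46 and 0.45 in knockout trained libraries 2, 3 and 5, and -0.12 and -0.06 in libraries 1 and 4. For the long genes it was -0.37, -0.02 and -0.01 in the first 3 libraries and 0.22 and 0.14 in the other 2. Libraries 3 and 5 are near-identical and were counted as 1 sample, as were 1 and 4. The knockout trained libraries in which the short genes were high were thus those in which the median of the long genes was at or below the mean. Actn3, 1 of the long genes, did not follow that median. It measured 5418, 5216 and 5280 CPM in libraries 2, 3 and 5 and 4491 and 4433 CPM in libraries 1 and 4.

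Over all genes with a known transcript length, the log2 deviation per doubling of length was between 0.01 and 0.08 in each of the 10 sedentary libraries. It was -0.17, -0.12 and -0.12 in knockout trained libraries 2, 3 and 5, and -0.11 and -0.10 in vehicle trained libraries 1 and 2. Ttn, the giant spring protein of the sarcomere and the longest transcript in muscle, measured 3071, 3951 and 3906 CPM in knockout trained libraries 2, 3 and 5 and 7185 and 6962 CPM in libraries 1 and 4. With a smooth offset on transcript length in the edgeR fit, Tnnc2 in trained muscle had a log2 change of 0.51 and an adjusted p of 0.198, and Mylpf 0.71 with an adjusted p of 0.0348, the 1 of the 10 called, beside 2.5% of all genes. The training changes in knockout muscle became 0.20 for Tnnc2, 0.32 for Tnni2, 0.41 for Tnnt3 and 0.42 for Mylpf, with edgeR adjusted p between 0.415 and 0.902. That offset moved the median of all genes in this comparison to 0.12, and it was chosen after the data were seen.

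**Figure D4:**
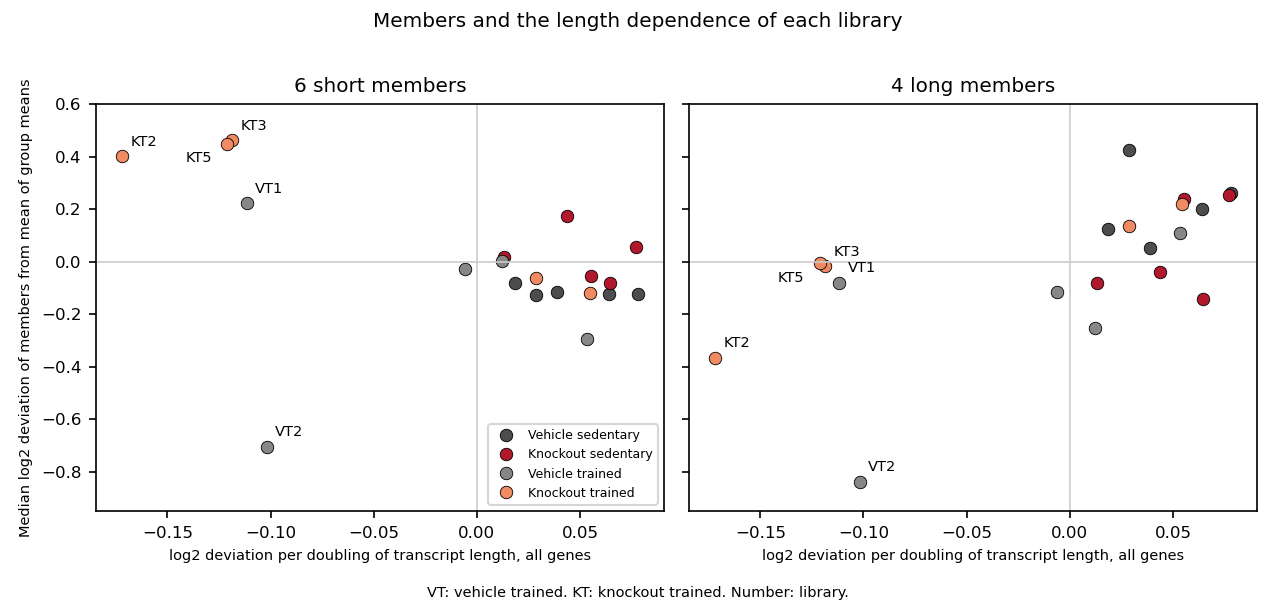
Median log2 deviation of the 6 short (left) and the 4 long genes (right) from the mean of the group means (y axis) against the log2 deviation per doubling of transcript length over all genes (x axis); each point is 1 library, coloured by group, and the 5 libraries with slopes under -0.10 are named. Knockout trained libraries 2, 3 and 5 lie at the upper left for short genes, at 0.40 to 0.46, while vehicle trained library 2 is low in both panels.

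The genes most like the mean course of the 10 over the 18 samples were sought among all others tested, by the root mean square difference of centred log2 CPM. They were Suclg1 at 0.070, Phb at 0.077, Pgp at 0.086, Slc25a4 at 0.090 and Bckdk at 0.092. The first, a subunit of succinyl-CoA ligase, and Slc25a4, the ADP and ATP carrier, are mitochondrial proteins. The 10 genes themselves lay between 0.116 (Tnnc2) and 0.587 (Myh2) from their own mean, so the course of the mean was nearest to that of Tnnc2 and farthest from that of Myh2.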

How the data were processed

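Libraries were prepared from Trizol and column-purified RNA with an Illumina kit, per the labels' protocols. The submitters' processing notes name Partek, STAR 2.7.8a, DESeq2 and the builds mm10 and GRCm39, with no role, so no gene coordinates are taken from the files. Strandedness is not given in the sources used here. The authors deposited estimated counts per gene: the column totals differ and 72% of the values are whole numbers. The counts were rounded. Near-identical libraries were summed for the edgeR, DESeq2 and limma fits and averaged for means and for the share and ratio tests. Genes with at least 1 CPM in at least 5 of 20 libraries were kept, 14359 in all. The edgeR 4.0.16 quasi-likelihood test in R 4.3.3 used TMM scaling and 4 group means, two-sided, with Benjamini-Hochberg adjustment over all tested genes and a threshold of 0.05. The edgeR procedure was also run on simulated counts with known changes, which held no outlying library and no dependence on transcript length. Standard errors were derived from the log2 change and its F statistic. Shares and ratios (log2 of counts plus 0.5) were compared by exact permutation over samples (Python 3.11.15), adjusted within each family. Transcript lengths and coding sequences came from GENCODE annotation and promoters from RefSeq. For each gene the longest transcript flagged as principal was used, or the longest transcript where none was flagged. All 10 genes are named, and of each list the called genes up to 8. The genes and lists were chosen with earlier results of these data known. Alternatives were other scalings, tools and filters, left-out samples, a replicate block and, added later, an offset on transcript length.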

Additional observations from a re-analysis of the deposited data

Results flagged for a closer look

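In 2 of the 30 sets of 5 libraries that were examined for a distant value, 1 library lay far from the others, where chance gives about 1.5. Vehicle sedentary library 2 held 2598 CPM of Myh2, and the other 4 of its group held 1694 to 1935 CPM. Knockout sedentary library 2 held 7900 CPM of Pvalb, and the other 4 held 6370 to 6779 CPM.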

How the results depend on the processing

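Between the trained groups the main count of 1 gene called was 2 with DESeq2 size factors, the DESeq2 Wald test or 20 libraries taken as separate. It was 0 with library totals and no TMM, limma on log2(CPM + 1) or log2(CPM + 0.1), no filter on low counts, or only the groups compared, and 0 to 2 when 1 sample was left out. The cause was not tested. With training in knockout muscle the count of 0 was 1 by the DESeq2 Wald test (Tnni2) and 0 to 4 when 1 sample was left out, and between the sedentary groups it was 1 with only the groups compared (Mylpf) and 0 to 0 when 1 sample was left out. The 12 single-gene changes followed through the alternatives, those of Mylpf, Tnnc2, Pvalb, Tnni2, Tnnt3 and Myh2 with an unadjusted p under 0.05, and the Myh2 shares and log2 ratios with an exact p under 0.05 kept their direction under every alternative run. Values near 0 did not all do so: the median of the 10 genes ran from -0.07 to 0.03 between the sedentary groups and from -0.15 to 0.02 with training in vehicle muscle, and with the length offset Myl1 in sedentary muscle was at -0.01 in place of 0.04 and Myh4 in trained muscle at 0.08 in place of -0.05. Library totals with no TMM moved the median of all genes to -0.15 with training in knockout muscle and to -0.12 in the interaction, and limma moved the first to -0.14 and -0.16. With only the groups compared no interaction could be fitted. Replicate numbers gave no clear pairing of the samples: same-numbered deviations correlated at -0.394 to 0.347. Each library of 1 group was set against those of another, and in 7 of 30 such cases its own number correlated best. Between the knockout groups this held in 3 of 5 cases. With a replicate block on 20 libraries, 1 gene was called between the trained groups and 0 in every other comparison, and all-gene calls were 336, 980 and 0 (sedentary, trained, training in knockout) against 373, 1225 and 49 without the block.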
